A study of Mus musculus with 10 samples.

Results

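The genes described here are 5 immediate early transcription factors, Fos, Jun, Junb, Egr1 and Nr4a1. They were chosen by name, as the spots that carry the descriptive name or an old alias of each gene. No value entered that rule, but earlier results of these data were known when it was made. Of the 24192 spots on each array, 6 matched, with 2 for Egr1 and 1 for each of the other genes. The RNA came from the mouse paraventricular nucleus (PVN), a hypothalamic nucleus. Separated animals had been kept away from their mothers for 24 h, and non-separated animals had not. Each condition had 6 animals, punched with a corer of 1 mm from frozen sections of 100 µm, and punches of 2 animals were joined into each of 3 samples. The amplified RNA of a condition was then joined into 1 pool, and the separated pool and the non-separated pool were hybridised together on 10 spotted arrays. The separated pool carried the dye Cy5 on 5 arrays, here called Cy5-separated, and the dye Cy3 on the other 5, called Cy3-separated. The arrays are therefore technical repeats of 1 pool against 1 pool, and they allow no p-value for what separation did to animals. The SD given with each value is taken over all 10 arrays. It holds array error and any difference between the 2 dye orientations, and no spread between animals. The animals' age, sex and litter are not given in the sources used here.

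Immediate early genes are transcribed within minutes of a stimulus by transcription factors that are already in the cell and are switched on by calcium and MAP kinase signalling. Their transcripts are short-lived, so a single stimulus gives a brief pulse. In the hypothalamus, including the PVN, Fos is widely used as a marker of neurons activated by stress. Fos, Jun and Junb are leucine zipper proteins that pair to form the transcription factor AP-1. Egr1 (also Zif268 or Krox-24) is a zinc finger protein, and Nr4a1 (also Nur77) is an orphan nuclear receptor that takes part in transcription of the corticotropin-releasing hormone and pro-opiomelanocortin genes in the stress axis.

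None of the 5 genes was higher or lower in the separated pool by the rule used here, a value of at least 1.5-fold whose sign was shared by all 10 arrays. The values, as log2 of the separated over the non-separated pool, ran from -0.23 ± 0.93 for Nr4a1 to 0.02 ± 1.08 for Jun (SD over 10 arrays, brightest spot of each gene). For every one of the 5, the SD over arrays exceeded the distance of the value from 0. That is not particular to them, as the median SD over all spots that were not controls was 0.52 and the median distance from 0 was 0.14. The same rule was met by 58 of all 22818 spots that were not controls, or 0.254%. The separated pool was higher at 17 of them, or 0.0745% of the spots tested, and lower at 41, or 0.18%. Among spots brighter than the array's empty spots, a class that held none of the members, the share called was 0.627%, with 0.157% higher and 0.47% lower in the separated pool. A count of 0 among 6 spots is what such a share gives and says nothing particular about these genes. In bulk tissue, fewer cells of a type and less RNA per cell cannot be told apart.

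Of the AP-1 genes, Fos had log2 ratios of 1.04, -0.19, 0.29, -0.35 and -1.23 on the Cy5-separated arrays, and of -1.04, 0.49, -0.12, -0.04 and 0.03 on the Cy3-separated arrays. Its highest and its lowest ratio fell in the same dye orientation, and each orientation held ratios on both sides of 0. The value was -0.11 ± 0.67, from means of -0.09 on Cy5-separated and -0.13 on Cy3-separated arrays. Leaving out 1 array at a time gave -0.25 to 0.03. The 0.03 was without the array at -1.23, where the raw intensity was 2.81 for the separated pool, against 127 for the non-separated pool. The value was -0.32 with no background correction, -0.34 with no normexp offset and 0.04 with median centring in place of loess.

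Jun, a member of the family from which Fos needs a partner to bind DNA, had log2 ratios of -0.92, -0.66, 0.61, 0.18 and 1.55 on Cy5-separated arrays, and of -0.91, 0.55, 1.14, -1.92 and 0.53 on Cy3-separated arrays. The arrays split 6 above and 4 below 0 and covered a wide range on either side. The value, 0.02, lay between means of 0.15 on Cy5-separated and -0.12 on Cy3-separated arrays. The SD of Jun, 1.08, was larger than that of 98.7% of all spots that were not controls, against a median SD of 0.52. These arrays settled no direction for Jun.

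Junb, a Jun relative that is a weaker activator than Jun at many AP-1 sites, was the least variable of the 5. Its log2 ratios were -0.34, 0.06, 0.10, 0.07 and -0.40 on Cy5-separated arrays, and 0.05, 0.77, -0.74, -0.54 and -0.17 on Cy3-separated arrays. The ratios fell 5 above and 5 below 0. The value was -0.12 ± 0.43, from means of -0.10 on Cy5-separated and -0.13 on Cy3-separated arrays, and it stayed between -0.23 and -0.04 whichever array was left out.

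Egr1 was the member with 2 spots, and they gave different values. The brighter one, spot 414, had log2 ratios of 0.28, -1.31, 0.18, 0.30 and 0.01 on Cy5-separated arrays, and of -0.13, 0.09, -0.09, 0.09 and -0.22 on Cy3-separated arrays. Apart from the array at -1.31, all of these ratios lay within 0.30 of 0. The value of spot 414 was -0.08 ± 0.47, and 0.07 without that array. Its means were -0.11 on Cy5-separated and -0.05 on Cy3-separated arrays. The SD over the Cy3-separated arrays was 0.14, the smallest of any member spot in either orientation.

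The other Egr1 spot, 9776, had log2 ratios of 0.57, -0.38, -0.32, -0.85 and -0.34 on Cy5-separated arrays, and of 0.52, -0.52, 0.77, 2.82 and 0.36 on Cy3-separated arrays. Of 5 arrays in each orientation, 1 Cy5-separated and 4 Cy3-separated arrays were above 0, and the means were -0.26 and 0.79. The value was 0.26 ± 1.05, and it was 0.01 without the array at 2.82. On that array the raw intensity at the spot was 2060 for the separated pool, against 145 for the non-separated pool. Over the 10 arrays, the ratios of the 2 Egr1 spots had a Pearson correlation of 0.13, given as a description.

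Nr4a1 had log2 ratios of -1.18, 0.29, 1.15, 0.09 and 0.08 on Cy5-separated arrays, and of -0.96, -0.09, -2.05, 0.54 and -0.14 on Cy3-separated arrays. The orientations leaned opposite ways, with 4 of 5 Cy5-separated and 1 of 5 Cy3-separated arrays above 0. Their means were 0.09 and -0.54, and the value between them was -0.23 ± 0.93. The value was -0.04 without the array at -2.05 and -0.07 without the one at -1.18, and it reached -0.36 without either the array at 1.15 or the one at 0.54.

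**Figure D1:**
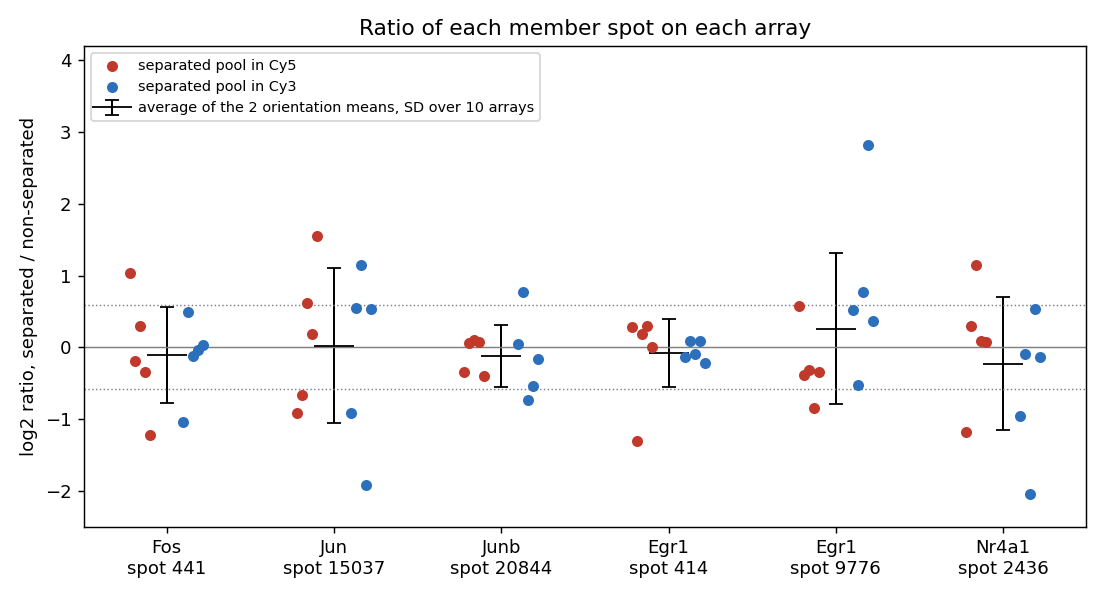
Log2 ratio of the separated over the non-separated pool (y axis) at each of the 6 spots (x axis), with 1 point per array, marked by the dye that carried the separated pool. Each spot's points lie on both sides of 0, and Egr1 spot 9776 (highest point 2.82) and Nr4a1 (lowest point -2.05) hold the most extreme ratios.

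Across the 6 spots and 10 arrays there were 60 ratios, of which 31 lay above and 29 below 0. In 8 of them the separated pool was at least 1.5-fold higher and in 12 at least 1.5-fold lower, while the other 40 lay within that range. In 5 of the 6 spots, single arrays passed 1.5-fold in both directions. The share of all spots that did so was not counted, so this is not read as particular to the members. The median SD over all spots that were not controls, 0.52, was close to the 1.5-fold limit of 0.58 on the log2 scale. No member spot had all ratios of 1 dye orientation above 0 and all of the other below it, a pattern found at 3.35% of all spots that were not controls. Ratios of the 2 orientations that did not overlap, whatever their sign, were found at 9.58% of those spots and at none of the members. Between pairs of the 5 genes, the correlation of the 10 ratios ran from -0.22 for Fos with Jun to 0.39 for Junb with Nr4a1. These correlations are descriptions over arrays that share the same 2 pools, so they say nothing of how the genes vary between animals.

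The brightness of a spot sets how much a ratio can show, and most member spots were dimmer than the median spot. Raw intensities carry the brightness of the dye, and levels at different spots cannot be compared as transcript levels. Fos had intensities with a lowest value, median and highest value of 2.81, 125 and 272 in the separated pool, against 83.6, 140 and 211 in the non-separated pool. Jun had 34.7, 158 and 359 in the separated pool, against 61.7, 117 and 384 in the non-separated pool. The 2 pools overlapped widely at both spots. Fos was brighter than only 5.26% of spots that were not controls and Jun than 9.46%.

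Junb had intensities of 172, 418 and 1210 in the separated pool, against 161, 680 and 1320 in the non-separated pool. Egr1 had 331, 584 and 1440 in the separated pool, against 251, 787 and 2010 in the non-separated pool, at spot 414. At Egr1 spot 9776 the values were 131, 465 and 2060 in the separated pool, against 145, 436 and 954 in the non-separated pool. The ranges of the pools overlapped at all of these spots. Nr4a1 had 68.9, 195 and 518 in the separated pool, against 172, 284 and 518 in the non-separated pool, with overlapping ranges. Of the 5 genes, only Egr1, at spot 414, was brighter than the median spot, at the 59.3rd percentile.

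**Figure D2:**
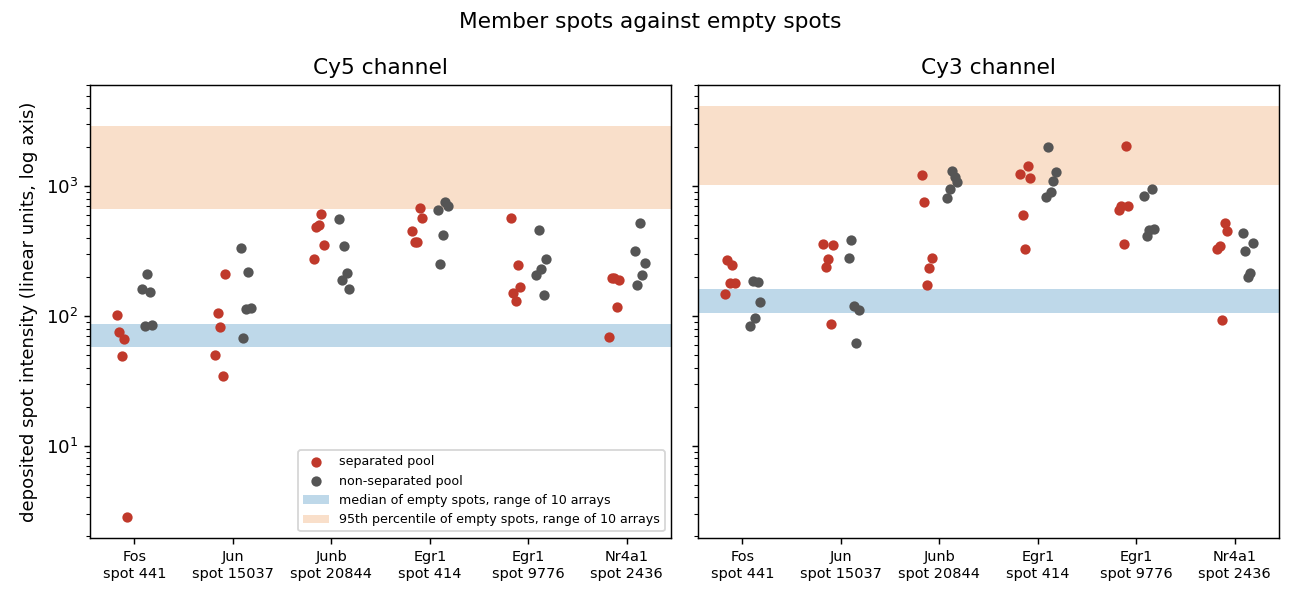
Raw spot intensity (y axis, log scale) of each member spot on the 10 arrays, for the separated pool and the non-separated pool side by side. The pools overlap at every spot, as at Fos (medians 125 in the separated pool and 140 in the non-separated pool) and at Egr1 spot 414 (medians 584 and 787).

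The arrays carried 1170 spots that the files name as empty, and their intensities serve as the background. Most of these empty spots were dim, with medians of 57.8 to 86.8 in Cy5 and 105 to 161 in Cy3, but their upper tail was bright. Their 90th percentile was 159 to 203 in Cy5 and 228 to 365 in Cy3, whereas their 95th was 670 to 2910 in Cy5 and 1030 to 4190 in Cy3. A spot counted as above empty spots where either channel exceeded the 95th percentile on at least 8 of 10 arrays. None of the 6 member spots did so, and 2552 of the 22818 spots that were not controls did.

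The position below that limit differed among the members. With the 90th percentile in place of the 95th, a limit chosen after the values were seen, Junb, both Egr1 spots and Nr4a1 passed on at least 8 arrays, as did 17981 of all spots that were not controls. None of these 4 member spots was called, against 0.273% of the 17981. Egr1 spot 414 exceeded it in both channels on all 10 arrays. Fos exceeded it in either channel on 1 array and Jun on 7. The median intensity of Fos over the median of the empty spots was 1.19 in Cy5 and 1.29 in Cy3, and that of Jun 1.46 and 1.84. For Junb this ratio was 5.03 in Cy5 and 7.09 in Cy3, and for Egr1 spot 414 it was 8.16 and 7.58. By these medians per dye channel, Fos was close to the level of empty spots and Jun was somewhat above it. Neither passed either limit on at least 8 arrays, and a difference between the pools was not detectable for them at this signal.

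The other genes of the same families gave no called gene either. Of 9 measured, 4 lay above and 5 below 0, with a median of -0.01 and a range of -0.32 to 0.55, against a median of 0.00 over all spots that were not controls. None of the 9 was above the 95th percentile of empty spots, and 6 were above the 90th. The AP-1 relatives Fosb, Fosl1 and Jund had values of -0.01 ± 0.96, 0.02 ± 0.47 and -0.05 ± 0.52. Fosl2 had 2 spots with values of -0.30 and 0.15, on opposite sides of 0.

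Among the Egr relatives, Egr2 (Krox-20, required for myelination in Schwann cells) had a value of 0.17 ± 0.61. Egr3 had means of 0.47 on Cy5-separated arrays and -0.39 on Cy3-separated arrays, which average to 0.04 ± 0.47. Egr4 split the same way at the brighter of its 2 spots, with means of 0.44 and -0.48, and the value there was -0.02 ± 0.68. The value of its other spot was 0.43. Of the Nr4a relatives, Nr4a3 had a value of -0.32 ± 1.00. Nr4a2 (Nurr1, needed for midbrain dopamine neurons) had the value farthest from 0 of the family, 0.55 ± 0.71. Its ratio was above 0 on 8 of 10 arrays, but the mean was 0.04 on Cy5-separated arrays and 1.07 on Cy3-separated arrays, so its distance from 0 came from the Cy3-separated arrays.

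The kinases and transcription factors that act upstream of immediate early genes included 5 of 19 genes above the 95th percentile of empty spots. None was called, and 10 lay above and 9 below 0, with a median of 0.01. The stress kinases Mapk8 (JNK1) and Mapk9 (JNK2), which phosphorylate Jun, had values of -0.06 ± 0.22 and -0.26 ± 0.38. The means of Mapk8 were 0.10 on Cy5-separated and -0.23 on Cy3-separated arrays, and those of Mapk9 were -0.49 and -0.02. Camk2b, a calcium-dependent kinase subunit, had a value of 0.10 ± 0.38, from means of -0.23 on Cy5-separated and 0.42 on Cy3-separated arrays. These are values of the brightest spot. Over all spots of the gene, they ran from -0.06 to 0.06 for Mapk8, -0.34 to 0.05 for Mapk9 and -0.29 to 0.25 for Camk2b. Mef2d, an activity-regulated transcription factor singled out after its values were seen, was at 0.83 ± 0.89 and lay above 0 on 9 of 10 arrays. Its spot was not above either limit from empty spots, with median intensities of 154 in the separated pool and 58.9 in the non-separated pool.

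No gene was called among the 16 leucine zipper partners, corepressors, nuclear receptor partners and feedback inhibitors, of which 6 lay above and 10 below 0, with a median of -0.04. The gene in that list above the 95th percentile of empty spots was Zfp36l1, which encodes a protein that speeds decay of AU-rich transcripts. Its mean was -0.50 on Cy5-separated arrays and 0.45 on Cy3-separated arrays.

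The 32 other immediate early and activity-regulated genes also held none that was called, with 22 above and 10 below 0 and a median of 0.08. Over all spots that were not controls, 11448 lay above and 11370 below 0. The genes in that list above the 95th percentile were Rgs2, a regulator of G protein signalling, at -0.03 ± 0.46, Tsc22d1 at 0.03 ± 0.67 and Rgs4, another regulator of G protein signalling, at 0.07 ± 0.70. In each of these the dye orientations had means of opposite sign, at 0.38 on Cy5-separated and -0.44 on Cy3-separated arrays for Rgs2, 0.63 and -0.58 for Tsc22d1, and -0.31 and 0.46 for Rgs4. Over all spots of the gene, values ran from -0.13 to 0.13 for Rgs2, 0.03 to 0.32 for Tsc22d1 and 0.07 to 0.36 for Rgs4. Arc, an activity-regulated synaptic gene, was at 0.20 ± 0.58. Bdnf, a neurotrophin, was at 0.22 ± 0.59, and Per1, a clock gene that glucocorticoids induce, was at 0.24 ± 0.36. Arc, Bdnf and Per1 were named after their values were seen, and each lay on both sides of 0 over the arrays. Nfil3, also singled out afterwards, had the lowest value, -0.76 ± 1.06. It lay below 0 on 7 of 10 arrays, with median intensities of 88.6 in the separated pool and 202 in the non-separated pool.

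**Figure D3:**
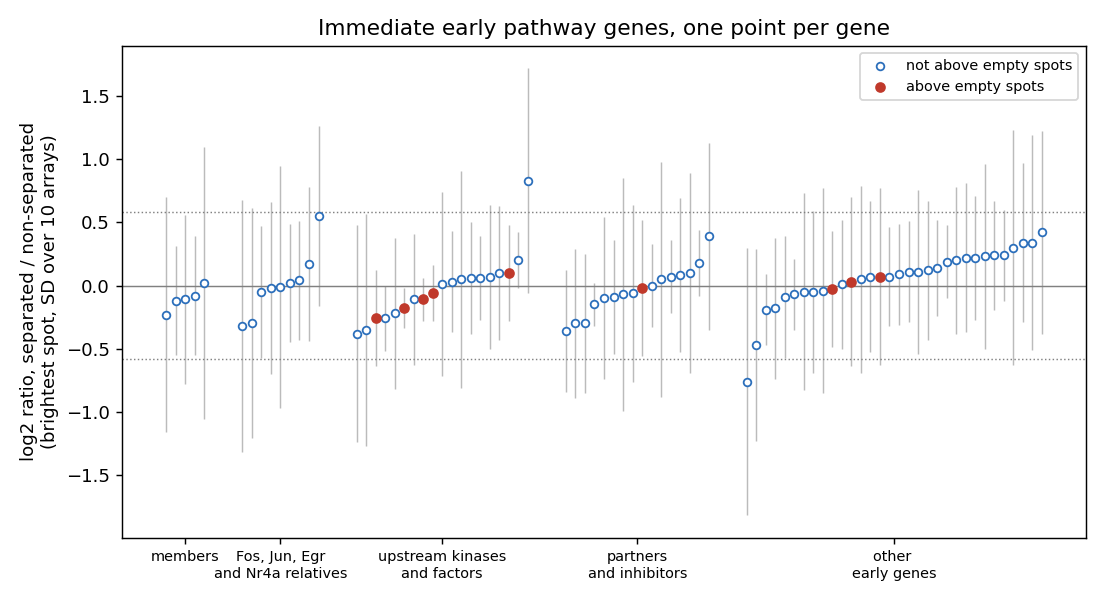
Log2 ratio of the separated over the non-separated pool (y axis) for the genes of each list (x axis), with 1 point per gene, from its brightest spot. Values centre near 0 in every list, with medians of -0.11 for the 5 immediate early transcription factors and 0.08 for the 32 other immediate early genes, and Mef2d (0.83) and Nfil3 (-0.76) lie farthest out.

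In all, 76 genes of these 4 lists were measured and none was called, while 2 passed 1.5-fold without the sign rule. The share that passed 1.5-fold without the sign rule over all spots that were not controls was 0.964%. Of the 76, 9 were above the 95th percentile of empty spots and 53 above the 90th.

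The tissue was checked with neuropeptides of PVN neurons. None of Avp, Oxt, Crh, Trh and Sst was above the 95th percentile of empty spots, and 4 of the 5 were above the 90th, with Crh the exception. Avp (vasopressin) had a value of -0.53 ± 0.49 with 9 of 10 arrays below 0, Oxt (oxytocin) of -0.31 ± 0.92 and Crh (corticotropin-releasing hormone) of 0.17 ± 0.54. Markers of astrocytes were above the 95th percentile for 3 of 5 genes, of oligodendrocytes for 3 of 5 and of microglia for 0 of 5. Of the glial markers, Aldoc, an astrocyte enzyme, was called lower in the separated pool, at -0.73 ± 0.35. Some of the other markers above the 95th percentile kept 1 sign on all 10 arrays at sizes short of 1.5-fold. The astrocyte gap junction gene Gja1 (-0.51 ± 0.22), the myelin gene Mbp (-0.43 ± 0.27) and the neuronal enolase Eno2 (-0.37 ± 0.20) were below 0, and the haemoglobin gene Hbb-b1 (0.45 ± 0.16) was above 0. The markers that kept 1 sign were named after their values were seen. The rest above that limit lay on both sides of 0 over the arrays. They were Slc1a3 of astrocytes (-0.02 ± 0.22), Mobp (0.20 ± 0.47) and Cnp (0.25 ± 0.89) of oligodendrocytes, and Stmn2 of neurons (0.10 ± 0.23). All of these are values of the brightest spot, and the spots of a gene differed. Values ran from -0.87 to -0.19 for Aldoc, -0.55 to -0.02 for Mbp and -0.37 to 0.07 for Eno2. They ran from -0.51 to -0.48 for Gja1, 0.20 to 0.45 for Hbb-b1 and -0.02 to 0.10 for Slc1a3. Those of Mobp (-0.37 to 0.27), Cnp (-0.46 to 0.25) and Stmn2 (-0.17 to 0.10) lay on both sides of 0. List medians were -0.20 for astrocytes and -0.01 for oligodendrocytes. Of 4 neuronal markers 2 were above the 95th percentile, with a list median of -0.10, and of 3 blood markers 1 was, with a median of -0.05. None of the 5 vessel markers (median -0.09), the 3 of choroid plexus and meninges (0.34) or the 5 of microglia (0.09) was above it. The part of cell makeup in the members' values was not tested.

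The dyes set a limit for all spots. The means of the 2 orientations, both turned to separated over non-separated, correlated at -0.15 across all spots that were not controls and at -0.37 across those above empty spots, as a description over spots that share arrays. The files record the 2 orientations on different days, so dye orientation and day cannot be told apart. Both pools were on every array, and the means within each orientation are given with every member spot. The directions follow the dye that the labels and the file headers give to each pool. Had the array titles named the pool in Cy5 instead, every sign in the text would turn round.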

How the data were processed

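The authors deposited the linear spot intensity of both channels, Cy5 first and Cy3 second, with no background taken off, per the file headers. Limma 3.58.1 (R 4.3.3) corrected it with normexp (offset 50, local background) and then normalised every array by global loess, in which controls had weight 0. The recorded local background was 0 at 98.9% to 100% of an array's spots in Cy5 and at 91.6% to 99.9% in Cy3. At most spots there was thus no local background to take off, and the correction came from the normexp model and its offset. The value of a spot is the average of the means of the 2 dye orientations, so that a dye effect common to both cancels. The brightest of a gene's spots stands for it. The series table of log2 ratios deposited by the authors served as an alternative. How they were normalised is not given in the sources used. Each of its 10 columns held non-separated over separated (correlations of -0.96 to -0.92), with medians of 0.0011 to 0.0094. It was turned round.

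Median intensity per array was 269 to 489 in Cy5 and 404 to 929 in Cy3, and the number of arrays limits the precision. No probe sequences or coordinates were used. Names were matched to symbols by hand, without a check against clone sequences. The members and lists were chosen with earlier results of these data known. Named are all members, their families, called genes and, where a list has none, the 2 highest and 2 lowest values above empty spots. A gene that this rule names is not reported here. Alternatives were background correction, normalization, dye orientation, fold limit, detection and single arrays. The script was tested on simulated data.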

Additional observations from a re-analysis of the deposited data

Results flagged for a closer look

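Egr1 spot 414 had a log2 ratio of -1.31 on Cy5-separated array 2 (replicate 2), while the other 4 such arrays lay between 0.01 and 0.30. The distance from -1.31 to its nearest neighbour took up 0.821 of the group's range, above Dixon's critical value of 0.71 for 5 arrays. The raw intensity on that array was 369 for the separated pool, against 2010 for the non-separated pool. In all, 12 groups of 5 arrays were looked at, and chance alone gives such a result in about 1 in 20 groups, or 0.6 of the 12.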

How the results depend on the processing

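No member spot was called under any of the alternatives, and each member's value stayed within 1 SD of that reported. The limit at the 95th percentile left no member spot that could be called, and the authors' table held 3 of the 6. With SDs from 0.43 for Junb to 1.08 for Jun, staying within 1 SD is a loose criterion. Fos ranged from -0.34 to 0.04, Jun from -0.16 to 0.35, Junb from -0.23 to -0.04, Egr1 from -0.13 to 0.07 at spot 414 (0.09 as the median of both its spots) and Nr4a1 from -0.54 to 0.09, so Junb alone kept its sign throughout. The authors' table gave -0.07 for Junb and -0.09 and 0.26 for the Egr1 spots, and it held no value for Fos, Jun and Nr4a1. The count of all spots called, 58, was 1601 (911 higher, 690 lower) on Cy5-separated arrays alone and 686 (354 higher, 332 lower) on Cy3-separated arrays alone. In these 2 counts only 5 arrays had to share a sign and no dye effect was averaged out, so the rule was looser than for the 58. The other counts follow. The count was 220 (65 higher, 155 lower) at a lower limit of 0.32 on the log2 scale and 8 (2 higher, 6 lower) at 2-fold. It was 220 (72 higher, 148 lower) at 1.5-fold with no sign rule and 16 (4 higher, 12 lower) among spots above the 95th percentile of empty spots. Leaving out 1 array, with the sign rule over the arrays that remained, gave 63 to 83. Chosen after seeing the data, limits at the median and the 90th percentile of empty spots left 57 and 49. Each ratio compares the 2 pools within 1 array. No pairing of animals was possible, because each condition was 1 pool. Signal over background limits all members: none of the 6 spots passed the 95th percentile of empty spots.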

Other observations

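Among 1238 named spots above empty spots, those whose 10 ratios ran most like a member's are given as descriptions, with Pearson's r over arrays that share the same 2 pools. For Fos these were Eph receptor B2 (0.80) and a pleckstrin homology, Sec7 and coiled/coil domain gene (0.74). For Jun they were protein inhibitor of activated STAT gamma (0.85) and cellular nucleic acid binding protein (0.84). For Junb they were GABA(A) receptor-associated protein like 2 (0.77) and heat shock protein A (0.76). For Egr1 spot 414 they were mitochondrial ribosomal protein L9 (0.92) and formin 2 (0.78), and for Nr4a1 GABA-A transporter 4 (0.84) and the ATP synthase F1 O subunit (0.83).

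Of the 1170 empty spots, the bright tail set how many spots count as measured. The limit at their 95th percentile kept 2552 spots that were not controls, and the limit at their 90th kept 17981. The share called was 0.627% of the spots above the 95th and 0.273% of those above the 90th.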
